A study of Mus musculus with 24 samples.

Results

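The 9 genes described here encode receptors for 4 families of neuropeptides. Npy1r, Npy2r and Npy5r encode receptors for neuropeptide Y. Vipr1, Vipr2 and Adcyap1r1 encode receptors for vasoactive intestinal peptide (VIP) and the related peptide PACAP. Tacr1 and Tacr3 encode receptors for tachykinins, and Grpr encodes the receptor for gastrin-releasing peptide, a member of the bombesin family. The genes were taken by name, through NCBI Gene numbers, from the 36528 genes listed for each library. They were chosen with earlier results of these data known.

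All of these receptors pass the cell membrane repeatedly and act through G proteins. Receptors for neuropeptide Y mainly couple to Gi, which lowers cyclic AMP and opens potassium channels. Receptors for VIP and PACAP mainly couple to Gs, which raises cyclic AMP. Tachykinin and bombesin receptors mainly couple to Gq, which activates phospholipase C. In the cortex, neuropeptide Y, VIP and tachykinins are made largely by GABAergic interneurons, and many of their receptors sit on other neurons.

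The libraries were bulk RNA-seq of neurons from the cortex of adult mice, dissociated with papain and sorted by fluorescence. Sorted cells were DAPI-negative and carried GFP or tdTomato, according to the reporter line. The labels do not name the lines, the Cre drivers or the genotypes, and do not say how many animals gave a library. There were 4 subtypes of 6 libraries each: EXC (4 male, 2 female), PV (3 and 3), SST (4 and 2) and VIP (2 and 4). No library was treated with an agent, as far as the labels say. Whether each library came from its own animals is not stated in the labels, and p-values therefore reflect only the spread among these 24 libraries, which may be technical.

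Total counts per library ran from 1548907 to 15978459 reads, with a median of 6012251.5. PV libraries were the shallowest (1548907 to 4653119 reads) and had 14.379% to 52.884% of reads on mitochondrially encoded genes, against 1.796% to 16.623% in the other subtypes. A list of 8 pan-GABAergic marker genes summed to 352 to 889 CPM in EXC and to at least 4870 CPM in every other library, and 8 excitatory markers summed to 2350 to 6540 CPM in EXC and to at most 927 CPM elsewhere. EXC replicate 3 had the lowest excitatory sum of its group (2350 CPM) and the highest pan-GABAergic sum (889 CPM). EXC libraries also carried 5 markers of dentate granule cells, a hippocampal type outside the labelled cortex, at 277 to 613 CPM, against at most 8.59 CPM elsewhere. SST libraries carried 8 striatal markers at 399 to 1480 CPM, against at most 187 CPM elsewhere, and PV libraries carried 7 markers of ciliated cells at 48.1 to 195 CPM, against at most 2.89 CPM elsewhere. Most glial and vascular marker sums were highest on average in EXC, with wide ranges: 501 to 4270 CPM for 10 astrocyte markers, 85.2 to 3160 CPM for 9 oligodendrocyte markers, 43.6 to 246 CPM for 10 microglial, 17.0 to 194 CPM for 8 endothelial and 18.8 to 166 CPM for 8 mural markers, each highest in EXC replicate 6. In contrast, 5 oligodendrocyte precursor markers averaged 17.7 CPM in VIP (14.3 to 22.8) and 9.68 in EXC (0.846 to 39.7). Astrocyte markers in VIP, at 1130 to 1650 CPM, lay within the EXC range and above SST (237 to 343) and PV (240 to 766). The part of these other cells in the receptor levels was not tested. In bulk sorted samples, fewer cells that express a gene and less RNA of it per cell cannot be told apart.

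Of the 9 genes, 8 passed the filter on low counts, and Vipr2 did not. Levels are counts scaled to the TMM-adjusted size of each library (normalised CPM), and means are given with the SD over the 6 libraries of a subtype (n = 6 throughout). Differences among the 4 subtypes passed the test for 7 of the 8 tested genes (edgeR quasi-likelihood F test, Benjamini-Hochberg adjusted p under 0.05 over 14890 genes), in which 68.5% of all tested genes passed. The exception was Adcyap1r1. Over the 6 pairs of subtypes, 37 of 48 tests of a receptor gene passed. Of all tested genes, 26.3% (PV against SST) to 48.6% (PV against VIP) passed in a pair. Fold changes below are on the log2 scale with a standard error.

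**Figure D1:**
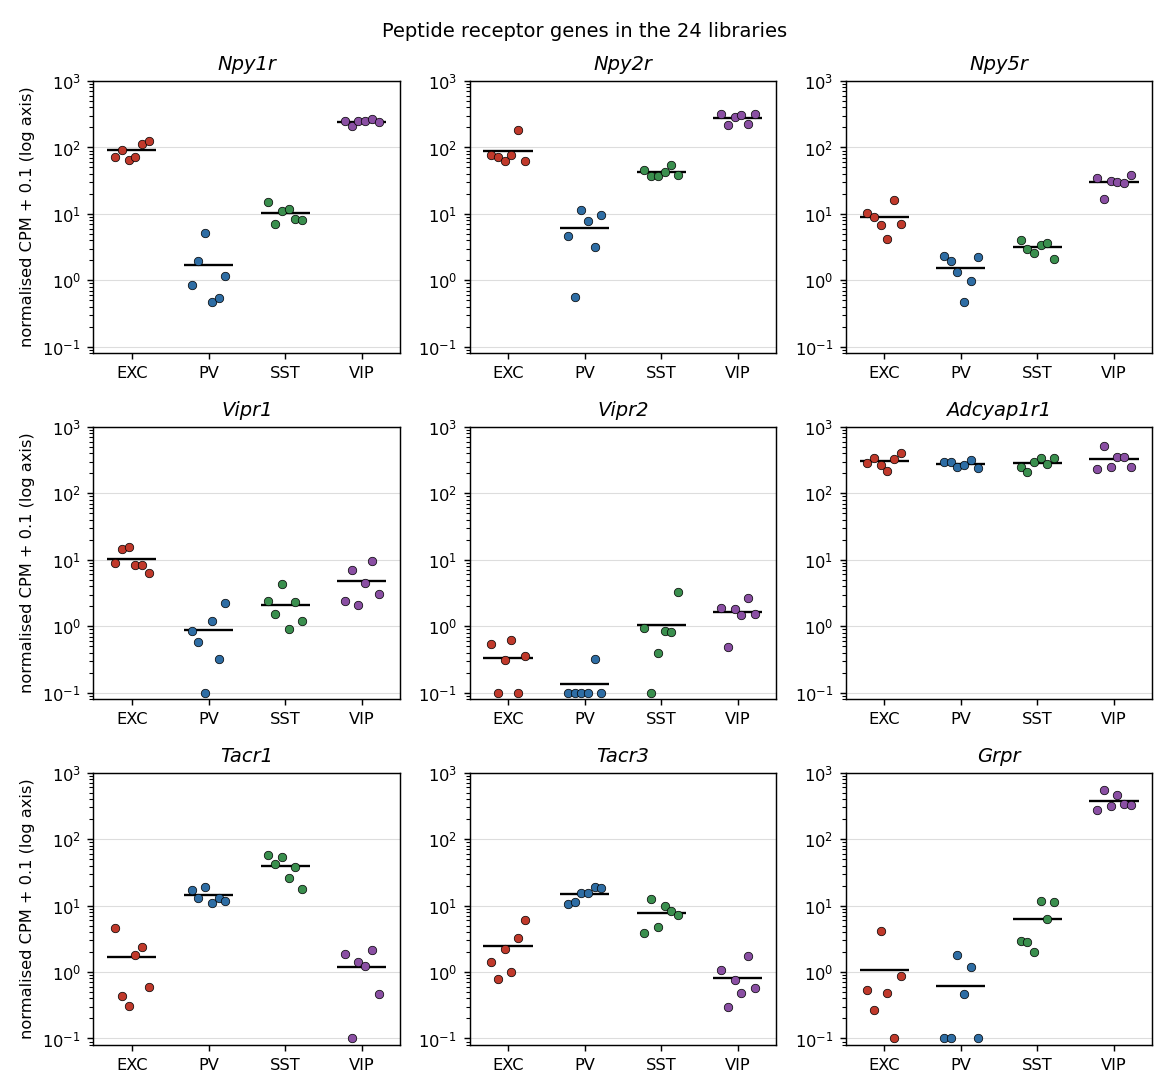
Normalised CPM plus 0.1 of the 9 receptor genes on a log axis, by subtype; each point is 1 library and each bar is the mean of 6. The 3 neuropeptide Y receptor genes stood highest in VIP and lowest in PV, Tacr1 and Tacr3 stood higher in PV and SST, Grpr rose far above the rest in VIP, and Adcyap1r1 lay between 207 and 522 CPM in every library.

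The genes lie on GRCm38 chromosomes 8 (Npy1r, 66697149 to 66706800, and Npy5r, 66679965 to 66688094), 3 (Npy2r, 82538383 to 82548989, and Tacr3, 134829007 to 134934581), 9 (Vipr1, 121642716 to 121672954), 12 (Vipr2, 116077420 to 116148637), 6 (Adcyap1r1, 55451501 to 55501455, and Tacr1, 82402003 to 82560104) and X (Grpr, 163513904 to 163549736). Npy1r and Npy5r are divergent neighbours, on opposite strands with 9054 bases between them. The 250 bases upstream of the start are shown for Grpr, Tacr3 and Vipr1, which had their highest means in 3 different subtypes (VIP, PV and EXC) and whose windows lie outside the span of the gene. They are from RefSeq GRCm38.p6, written 5′ to 3′ on the strand of the gene, at chrX:163549737-163549986 (minus strand), chr3:134828757-134829006 (plus) and chr9:121642466-121642715 (plus). Capitals mark CAGCTG, an E-box that reads the same on both strands, and TGACG or its reverse complement CGTCA, a partial cAMP response element.
Grpr: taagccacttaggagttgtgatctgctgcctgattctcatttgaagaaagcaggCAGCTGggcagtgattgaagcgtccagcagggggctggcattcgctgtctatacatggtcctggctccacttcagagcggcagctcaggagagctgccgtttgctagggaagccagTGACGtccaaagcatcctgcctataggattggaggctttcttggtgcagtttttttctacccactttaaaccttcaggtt
Tacr3: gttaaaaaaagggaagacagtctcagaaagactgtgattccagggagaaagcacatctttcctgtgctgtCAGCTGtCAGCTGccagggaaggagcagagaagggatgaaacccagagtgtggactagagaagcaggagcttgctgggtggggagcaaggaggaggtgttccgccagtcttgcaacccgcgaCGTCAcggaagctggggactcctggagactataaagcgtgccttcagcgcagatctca
Vipr1: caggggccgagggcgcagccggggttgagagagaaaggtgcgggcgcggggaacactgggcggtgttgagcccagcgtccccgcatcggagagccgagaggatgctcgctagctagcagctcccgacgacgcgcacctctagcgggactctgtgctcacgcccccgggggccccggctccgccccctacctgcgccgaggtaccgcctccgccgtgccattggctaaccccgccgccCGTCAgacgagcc
All 9 genes were matched in the RefSeq promoter table. CAGCTG stood in the windows of 4 of the 9 genes (Npy2r, Tacr1, Tacr3 and Grpr) and in 12.8% of 27025 promoter windows of this length. TGACG on either strand stood in those of Vipr1, Tacr1, Tacr3 and Grpr and in 17.9% of all windows. GC content was 51.6% for Grpr, 54.4% for Tacr3 and 72.8% for Vipr1, against a median of 52.0% over all windows. A match is a run of letters, and binding was not measured here.

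The 3 genes for neuropeptide Y receptors followed 1 order, VIP above EXC above SST above PV, and the steps in that order each passed the test over all libraries. With the pool as a covariate, 3 steps were no longer called: SST against EXC for Npy2r (-0.79, adjusted p = 0.368) and Npy5r (-1.32, 0.160), and PV against SST for Npy5r (-1.54, 0.209). Npy1r, which encodes the Y1 receptor, found mostly on the receiving side of synapses, averaged 245 ± 20.3 CPM in VIP, 90.2 ± 24.7 in EXC, 10.1 ± 2.91 in SST and 1.59 ± 1.77 in PV. Npy2r, which encodes the Y2 receptor, known as a presynaptic brake on transmitter release, averaged 278 ± 44.8 CPM in VIP, 88.9 ± 47.2 in EXC, 42.3 ± 6.22 in SST and 6.13 ± 4.15 in PV. Npy5r, which encodes the Y5 receptor, averaged 30.1 ± 7.49 CPM in VIP, 8.88 ± 4.17 in EXC, 3.03 ± 0.715 in SST and 1.46 ± 0.752 in PV.

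Library values of Npy1r ran from 209 to 270 CPM in VIP (median 249), from 65.6 to 125 in EXC (82.5), from 6.93 to 14.8 in SST (9.61) and from 0.370 to 5.03 in PV (0.910). No library of a subtype overlapped the next subtype in this order. Npy1r was higher in VIP than in EXC by 1.46 ± 0.25 (adjusted p = 3.77e-05), lower in SST than in EXC (-3.16 ± 0.26, adjusted p = 4.01e-10) and lower in PV than in SST (-2.68 ± 0.39, adjusted p = 6.31e-06). Between the ends of the order, PV against VIP, the log2 fold change was -7.30 ± 0.37 (adjusted p = 2.09e-14). The PV value rests on 21 reads in 6 libraries, and the summed normalised reads of VIP were 164 times those of PV (95% counting interval 107 to 265).

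Npy2r ran from 217 to 319 CPM in VIP (median 294), from 61.8 to 184 in EXC (74.4), from 37.2 to 53.5 in SST (40.4) and from 0.469 to 11.3 in PV (6.13). Again the 4 subtypes did not overlap, although 1 EXC library, replicate 5 at 184 CPM, lay well above the other EXC libraries, which reached 76.5 CPM. The log2 fold change was 1.65 ± 0.30 in VIP against EXC (adjusted p = 7.78e-05), -1.07 ± 0.29 in SST against EXC (adjusted p = 0.00433) and -2.86 ± 0.36 in PV against SST (adjusted p = 8.55e-07). The step between EXC and SST was the smallest of the 3 for Npy2r and the largest for Npy1r; the difference between the genes was not tested.

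Npy5r ran from 16.4 to 38.8 CPM in VIP (median 30.7), from 4.17 to 16.3 in EXC (7.89), from 2.01 to 3.96 in SST (3.06) and from 0.370 to 2.24 in PV (1.57). SST and PV overlapped, and the other neighbours did not. Npy5r was higher in VIP than in EXC by 1.78 ± 0.30 (adjusted p = 2.48e-05) and lower in SST than in EXC (-1.55 ± 0.30, adjusted p = 0.000168). The difference between PV and SST (-1.22 ± 0.41, adjusted p = 0.0273) did not pass without PV replicate 4 (adjusted p = 0.0960), PV replicate 5 (0.0832) or SST replicate 4 (0.0524).

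On the deposited RPKM, which allow for gene length, the 3 neuropeptide Y receptor genes summed to 76.2 ± 10.5 in VIP, 25.0 ± 8.66 in EXC, 7.56 ± 1.13 in SST and 1.36 ± 0.707 in PV. Npy2r held 75.7% ± 3.97 of the sum in SST (70.1% to 80.3%), against 51.6% ± 3.53 in VIP (44.9% to 54.2%) and 47.9% ± 8.5 in EXC (34.3% to 59.7%). Npy1r held 15.4% ± 3.53 in SST, 39.2% ± 4.01 in VIP and 44.0% ± 9.17 in EXC, so the SST range (10.7% to 19.7%) lay below those of VIP (34.8% to 45.5%) and EXC (31.6% to 59.3%). These shares are descriptions and were not tested.

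Of the receptors for VIP and PACAP, Adcyap1r1 held by far the highest RPKM in all 4 subtypes (24.7 to 29.8 on average, against at most 1.27 for Vipr1 and 0.235 for Vipr2). Adcyap1r1, which encodes the PACAP-preferring PAC1 receptor, averaged 325 ± 111 CPM in VIP, 307 ± 65.0 in EXC, 283 ± 50.8 in SST and 278 ± 31.2 in PV. Vipr1, which encodes VPAC1, a receptor that binds both peptides, averaged 10.3 ± 3.83 CPM in EXC, 4.69 ± 2.97 in VIP, 2.0 ± 1.22 in SST and 0.782 ± 0.774 in PV. Vipr2, which encodes VPAC2, the other receptor for both, reached at most 3.16 CPM in a library.

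Adcyap1r1 ran from 228 to 522 CPM in VIP (median 298), from 217 to 399 in EXC (308), from 207 to 339 in SST (286) and from 238 to 320 in PV (281). All 4 subtypes overlapped. No difference among subtypes passed the test (adjusted p = 0.694), and the log2 fold changes of the 6 pairs ran from -0.19 ± 0.18 (PV against VIP, adjusted p = 0.397) to 0.03 ± 0.19 (VIP against EXC, adjusted p = 0.916). Its level was the highest of the 9 genes in EXC, PV and SST on the RPKM scale, at 27.7 (19.2 to 36.1), 24.7 (22 to 27.3) and 24.9 (17.9 to 29.9) RPKM. In VIP, at 29.8 RPKM (22.4 to 47.7), it stood beside Npy1r (29.6) and Npy2r (39.5) and below Grpr (92.0).

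Vipr1 ran from 6.18 to 15.7 CPM in EXC (median 8.61), from 2.0 to 9.57 in VIP (3.70), from 0.803 to 4.16 in SST (1.81) and from 0 to 2.15 in PV (0.608). EXC lay above all SST and PV libraries and overlapped VIP. Vipr1 was lower than in EXC by log2 fold changes of -2.49 ± 0.46 in SST (adjusted p = 9.78e-05) and -4.01 ± 0.60 in PV (adjusted p = 4.45e-06). VIP against EXC did not pass (-1.03 ± 0.44, adjusted p = 0.0653), nor did PV against SST (-1.52 ± 0.63, adjusted p = 0.0759). Both lay near the threshold. VIP against EXC passed with no sex covariate (-1.13, adjusted p = 0.041). It also passed without VIP replicate 2 (0.0442), VIP replicate 5 (0.0405) or EXC replicate 6 (0.0478). PV against SST passed without PV replicate 6 (-1.90, 0.0346) or without the 5 libraries of POOL7099 (-1.60, 0.0485). The PV level rests on 8 reads. With the pool as a covariate, SST against EXC was not called (-1.40, adjusted p = 0.272), nor were PV against VIP (-2.83, 0.0733) and SST against VIP (-0.31, 0.739).

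In VIP, Vipr1 differed with the sequencing pool. The 4 VIP libraries of POOL7099 held 2.99 to 9.57 CPM and the 2 of POOL7098 held 2.0 and 2.33 CPM. EXC replicate 3, the only EXC library of POOL7099, had the highest Vipr1 of its group (15.7 CPM). Vipr1 was lower in SST than in VIP over all libraries (-1.46 ± 0.47, adjusted p = 0.0194), but not within POOL7098 (-0.37, adjusted p = 0.614) or without VIP replicate 5 (adjusted p = 0.117), SST replicate 4 (0.0629) or SST replicate 6 (0.0554). Without the 5 libraries of POOL7099, Vipr1 was lower in VIP than in EXC (-2.08, adjusted p = 0.0152), and lower in PV than in VIP by a value that missed the threshold (-1.81, adjusted p = 0.0509, against -2.98 ± 0.61 and 0.000296 over all libraries).

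Vipr2 gave 61 reads over the 6 VIP libraries, 92 in SST, 11 in EXC and 1 in PV. Its level ran from 0.392 to 2.58 CPM in VIP (median 1.59), from 0 to 3.16 in SST (0.734), from 0 to 0.521 in EXC (0.232) and from 0 to 0.218 in PV (0). Every VIP library held reads, as did 5 SST, 4 EXC and 1 PV library. The summed normalised reads of VIP were 6.04 times those of EXC (95% counting interval 3.15 to 12.7) and 21.7 times those of PV (3.76 to 872). The ratio of SST to VIP was 0.759 (0.543 to 1.07), but 58 of the 92 SST reads came from replicate 6. Without that library it was 0.366 (0.233 to 0.566), and the ratio of SST to EXC fell from 4.58 (2.44 to 9.5) to 2.21 (1.09 to 4.84). In a fit without the filter on low counts, over 29189 genes, Vipr2 was higher in VIP than in EXC by 2.45 ± 0.86 (adjusted p = 0.0245), a comparison in which 22.6% of all genes passed. SST against EXC did not pass in it (1.84 ± 0.85, adjusted p = 0.109), nor did SST against VIP (-0.62 ± 0.75, 0.629) or PV against EXC (-1.84 ± 1.39, 0.377). PV was lower than VIP (-4.30 ± 1.23, 0.0038, 26.1% of all genes) and SST (-3.68 ± 1.24, 0.0279, 14.6%).

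Adcyap1r1 held nearly all of the VIP and PACAP receptor signal per length: 95.4% ± 1.87 in EXC, 97.3% ± 1.01 in VIP, 98.5% ± 0.549 in SST and 99.6% ± 0.423 in PV. Vipr1 held 4.48% ± 1.85 of it in EXC and 0.399% ± 0.436 in PV. The sum of these 3 genes lay close together in the 4 subtypes, at 30.6 ± 9.96 RPKM in VIP, 29.0 ± 5.74 in EXC, 25.2 ± 4.66 in SST and 24.8 ± 2.29 in PV.

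The tachykinin receptor genes stood higher in PV and SST than in EXC and VIP, the reverse of the neuropeptide Y receptor genes. Tacr1, which encodes the NK1 receptor for substance P, averaged 39.3 ± 15.4 CPM in SST, 14.1 ± 3.23 in PV, 1.59 ± 1.67 in EXC and 1.10 ± 0.786 in VIP. Tacr3, which encodes the NK3 receptor for neurokinin B, averaged 14.8 ± 3.45 CPM in PV, 7.61 ± 3.25 in SST, 2.35 ± 1.97 in EXC and 0.724 ± 0.528 in VIP.

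Tacr1 ran from 17.7 to 57.2 CPM in SST (median 40.5), from 10.7 to 18.9 in PV (12.9), from 0.212 to 4.56 in EXC (1.10) and from 0 to 2.02 in VIP (1.23). SST and PV overlapped only at their edges, both lay above all EXC and VIP libraries, and EXC and VIP overlapped. Tacr1 was higher in SST than in EXC by 4.45 ± 0.52 (adjusted p = 1.34e-07) and than in VIP by 5.05 ± 0.55 (adjusted p = 6.81e-08). It was also higher in PV than in EXC by 3.06 ± 0.51 (adjusted p = 2.10e-05) and than in VIP by 3.66 ± 0.54 (adjusted p = 5.16e-06). EXC and VIP did not differ beyond their spread (VIP against EXC -0.60 ± 0.56, adjusted p = 0.422). With the pool as a covariate, Tacr1 in PV against VIP fell to 0.67 and was not called (adjusted p = 0.904), while SST against EXC (6.78) and SST against VIP (4.58) were.

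PV against SST passed for Tacr1 (-1.39 ± 0.47, adjusted p = 0.0285), but not without PV replicate 1 (adjusted p = 0.0504), PV replicate 2 (0.0724), PV replicate 4 (0.0769) or SST replicate 1 (0.0588), nor with the pool as a covariate (-3.92, adjusted p = 0.143). Within SST, Tacr1 varied with the striatal markers. SST replicates 1 and 3 had the highest Tacr1 (57.2 and 53.9 CPM) and the highest sums of the 8 striatal markers (1360 and 1480 CPM), while replicates 4 and 6 had the lowest of both (Tacr1 25.9 and 17.7 CPM, markers 399 and 446 CPM). None of the 8 markers was at 0 in the SST group, and their part in the Tacr1 level was not tested. The lowest SST library still lay above all EXC and VIP libraries.

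Tacr3 ran from 10.5 to 18.8 CPM in PV (median 15.1), from 3.71 to 12.4 in SST (7.57), from 0.681 to 5.93 in EXC (1.71) and from 0.196 to 1.66 in VIP (0.573). Neighbours in this order overlapped, while PV lay above all EXC and VIP libraries and SST above all VIP libraries. Tacr3 was higher in PV than in EXC by 2.79 ± 0.47 (adjusted p = 2.13e-05) and than in VIP by 4.37 ± 0.51 (adjusted p = 1.01e-07). It was higher in SST than in EXC by 1.75 ± 0.43 (adjusted p = 0.00221) and than in VIP by 3.34 ± 0.49 (adjusted p = 7.37e-06). PV against SST did not pass (1.03 ± 0.42, adjusted p = 0.0715), although DESeq2 put it at 1.06 (adjusted p = 0.0484).

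Tacr3 was lower in VIP than in EXC (-1.59 ± 0.51, adjusted p = 0.0148), on 27 reads in VIP and 104 in EXC. This call was lost without EXC replicate 6 (-1.10, adjusted p = 0.0751), the EXC library with the highest Tacr3 (5.93 CPM) and the highest sums of 10 astrocyte markers (4270 CPM) and 9 oligodendrocyte markers (3160 CPM). On the VIP and EXC libraries alone, Tacr3 fell below the filter on low counts, so that fit gives it no value. Without POOL7099 the log2 fold change was -1.52 (adjusted p = 0.113). Once the pool was a covariate, neither VIP against EXC (-1.44, adjusted p = 0.312) nor SST against EXC (1.75, adjusted p = 0.321) was called for Tacr3.

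Per length, Tacr1 and Tacr3 summed to 5.38 ± 1.48 RPKM in SST, 3.84 ± 0.509 in PV, 0.545 ± 0.312 in EXC and 0.241 ± 0.167 in VIP. Tacr1 held 76.1% ± 12 of the sum in SST (63.8% to 91.5%) and 40.1% ± 9.15 in PV (31.1% to 53.4%), with no overlap between these 2 subtypes. These were the lowest sums of the 3 families with more than 1 gene in EXC and VIP.

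Among the 9 genes, the gap between the highest subtype and the next was widest for Grpr, which stood far higher in VIP. Its product, the BB2 receptor, binds gastrin-releasing peptide. Grpr averaged 379 ± 106 CPM in VIP, 6.15 ± 4.48 in SST, 0.962 ± 1.52 in EXC and 0.523 ± 0.707 in PV. Libraries ran from 272 to 552 CPM in VIP (median 336), from 1.93 to 11.8 in SST (4.49), from 0 to 4.02 in EXC (0.412) and from 0 to 1.68 in PV (0.185). Every VIP library lay above every other library, SST overlapped EXC, and EXC overlapped PV.

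Grpr was higher in VIP than in SST (SST against VIP -5.80 ± 0.46, adjusted p = 1.63e-10), higher in SST than in EXC by 2.76 ± 0.54 (adjusted p = 0.000223) and lower in PV than in SST (-3.23 ± 0.72, adjusted p = 0.00128). PV and EXC did not differ beyond their spread (-0.47 ± 0.96, adjusted p = 0.716). Since EXC held only 33 reads and PV 10, the distance to VIP is given as ratios of summed normalised reads: 491 over EXC (95% counting interval 349 to 713) and 530 over PV (288 to 1110). The fitted log2 fold change of VIP against EXC was 8.56 ± 0.57 (adjusted p = 2.72e-12). With the pool as a covariate it was 5.94 (adjusted p = 2.11e-06), and without the 5 libraries of POOL7099 it was 9.64. With that covariate Grpr was no longer called in SST against EXC (0.22, adjusted p = 0.859), and PV against SST turned to 0.49 (adjusted p = 0.786). PV against EXC, which passed in neither fit, turned to 0.71 with it and to 0.68 without POOL7099. Of the 33 EXC reads, 19 came from replicate 3, which also had the highest sum of 6 VIP interneuron markers among EXC libraries (113 CPM, against 38.7 to 49.2 in the other 5) and shares POOL7099 with 4 VIP libraries. Its part in the EXC level was not tested.

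**Figure D2:**
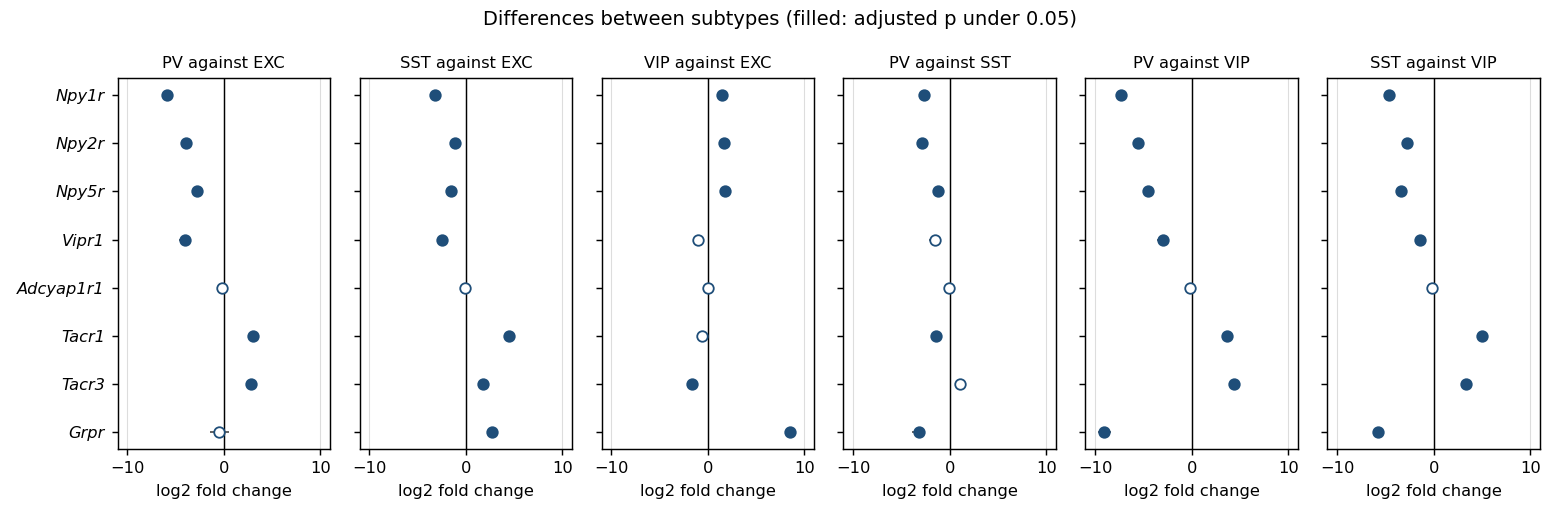
Log2 fold changes of the 8 tested receptor genes in the 6 pairs of subtypes, with bars of 1 standard error; filled points passed at an adjusted p under 0.05. Adcyap1r1 stayed near 0 in all pairs, and the largest difference was that of Grpr in PV against VIP (-9.03).

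By pair, 6 of the 8 tested genes passed in PV against EXC, where 45.9% of all tested genes passed. Of these 6, 2 were higher in PV (20.3% of all genes) and 4 lower (25.6%). In SST against EXC 7 passed (38.4% of all genes), 3 higher in SST (17.1%) and 4 lower (21.3%). In VIP against EXC 5 passed (39.1%), 4 higher in VIP (18.4%) and 1, Tacr3, lower (20.7%). In PV against SST 5 passed (26.3%), with 0 higher in PV (11.4%) and 5 lower (14.9%). In PV against VIP 7 passed (48.6%): Tacr1 and Tacr3 were the 2 higher in PV (21.9%), and 5 were lower (26.7%). In SST against VIP 7 passed (31.3%), the same 2 genes being higher in SST (14.6%) and 5 lower (16.7%). EXC compared with the average log2 level of PV, SST and VIP gave 7 (42.5%), 4 higher (24.5%) and 3 lower (18.1%). Higher in EXC were Npy1r (2.51 ± 0.21), Vipr1 (2.51 ± 0.35), Npy2r (1.11 ± 0.24) and Npy5r (0.85 ± 0.25). Lower were Grpr (-3.62 ± 0.65), Tacr1 (-2.30 ± 0.45) and Tacr3 (-0.98 ± 0.40). On the log2 scale the low PV levels weigh on the average, and Npy1r, Npy2r and Npy5r were each higher in VIP than in EXC. In CPM, Npy2r averaged 88.9 in EXC, against 278 in VIP, 42.3 in SST and 6.13 in PV. Npy5r averaged 8.88 in EXC, against 30.1 in VIP, 3.03 in SST and 1.46 in PV. For Npy2r and Npy5r the plain mean of these CPM over PV, SST and VIP lies above EXC. The Tacr3 call (adjusted p = 0.0469) was lost when EXC replicate 1, 2, 3 or 4, PV replicate 3, 4, 5 or 6, SST replicate 2 or VIP replicate 1, 3 or 5 was left out (adjusted p 0.0503 to 0.130). The Npy5r call was lost without EXC replicate 5 (adjusted p = 0.0621). Adding the pool as a covariate removed the calls of Npy2r (0.89, adjusted p = 0.0719), Npy5r (0.67, 0.236) and Tacr3 (-1.01, 0.317). Pairs that share a subtype share its 6 libraries and are not independent.

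Summed over the 9 genes, receptor signal per length was 199 ± 25.7 RPKM in VIP, 54.8 ± 11.9 in EXC, 39.6 ± 4.60 in SST and 30.1 ± 1.5 in PV. Grpr held 45.6% ± 5.91 of the VIP sum, Npy2r 20.3% ± 5.02, Npy1r 15.2% ± 2.87 and Adcyap1r1 14.7% ± 3.06. In PV, Adcyap1r1 alone held 81.9% ± 4.60, followed by Tacr3 with 7.71% ± 1.89 and Tacr1 with 5.08% ± 1.16. In SST the order was Adcyap1r1 (62.4% ± 5.29), Npy2r (14.5% ± 2.33) and Tacr1 (10.9% ± 4.74), and in EXC it was Adcyap1r1 (50.9% ± 6.24), Npy2r (22% ± 7.20) and Npy1r (19.4% ± 2.45).

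**Figure D3:**
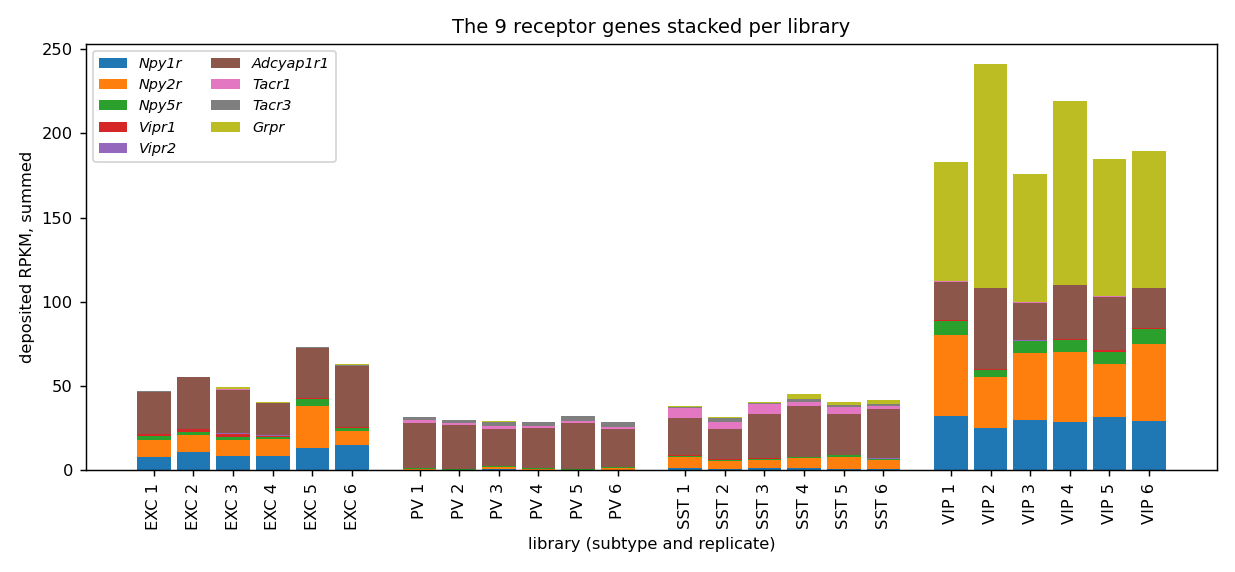
Deposited RPKM of the 9 receptor genes stacked for each of the 24 libraries. VIP libraries reached 176 to 241 RPKM, EXC 40.3 to 73.3, SST 31.5 to 45.1 and PV 28.6 to 32.4, and the block of Adcyap1r1 was present in all of them.

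The genes for the matching peptides were distributed differently. Npy, the precursor of neuropeptide Y, averaged 196 ± 47.6 CPM in SST (135 to 254), against 50.5 ± 20.6 in VIP, 42.9 ± 15.7 in PV and 39.2 ± 20.6 in EXC. It was higher in SST than in EXC by 2.33 ± 0.31 (adjusted p = 1.38e-06), and the other 3 subtypes did not differ beyond their spread (adjusted p = 0.423 to 0.794). In SST, replicates 1 and 3, with striatal markers at 1360 and 1480 CPM, held 241 and 211 CPM of Npy, and replicates 4 and 6, with 399 and 446 CPM, held 135 and 161 CPM; replicate 2 had the highest Npy (254 CPM) with markers at 770 CPM. The part of striatal cells in the Npy level was not tested. The highest Npy lay in SST and the highest Npy1r, Npy2r and Npy5r in VIP, while PV had Npy near the EXC level and the lowest receptor levels.

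Vip averaged 1730 ± 51.4 CPM in VIP and at most 1.58 CPM in the other subtypes. Adcyap1, the PACAP precursor, was low, at 8.90 CPM in EXC, 3.73 in SST, 0.839 in PV and 0.187 in VIP, and was lower in VIP than in EXC (-5.29 ± 0.65). In VIP, Vip stood at 675 RPKM beside 0.576 RPKM of Vipr1, 0.235 of Vipr2 and 29.8 of Adcyap1r1.

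Tac1, which encodes substance P and neurokinin A, averaged 166 ± 44.9 CPM in PV (121 to 229), 84.8 ± 32.4 in SST (39.3 to 118), 2.89 ± 1.25 in EXC and 0.561 ± 0.537 in VIP, so it stood high in the subtypes where Tacr1 and Tacr3 stood high. Within SST, Tac1 was highest in replicates 1 and 3 (118 and 109 CPM), which had the highest sums of the striatal markers, and lowest in replicates 4 and 6 (50.3 and 39.3 CPM), which had the lowest; the part of striatal cells was not tested. Tac2, which encodes neurokinin B, averaged 450 ± 137 CPM in VIP (279 to 624), 6.88 ± 5.40 in SST and 0.346 ± 0.354 in EXC, and gave 1 read in PV. VIP, the subtype with the highest Tac2, had the lowest mean of Tacr3. The log2 fold change of VIP against EXC was 10.16 ± 0.51 for Tac2 and -1.59 ± 0.51 for Tacr3.

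Grp, the precursor of gastrin-releasing peptide, averaged 9.94 CPM in EXC, 1.06 in SST and 0.691 in PV, and gave 1 read in the 6 VIP libraries, where Grpr was highest. It was lower in SST than in EXC (-3.22 ± 0.61, adjusted p = 0.000146). Nmb, the precursor of neuromedin B, did not pass the test among subtypes (adjusted p = 0.270), at 0.603 to 2.02 CPM on average. Pyy, Ppy and Tac4 did not pass the filter on low counts.

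**Figure D4:**
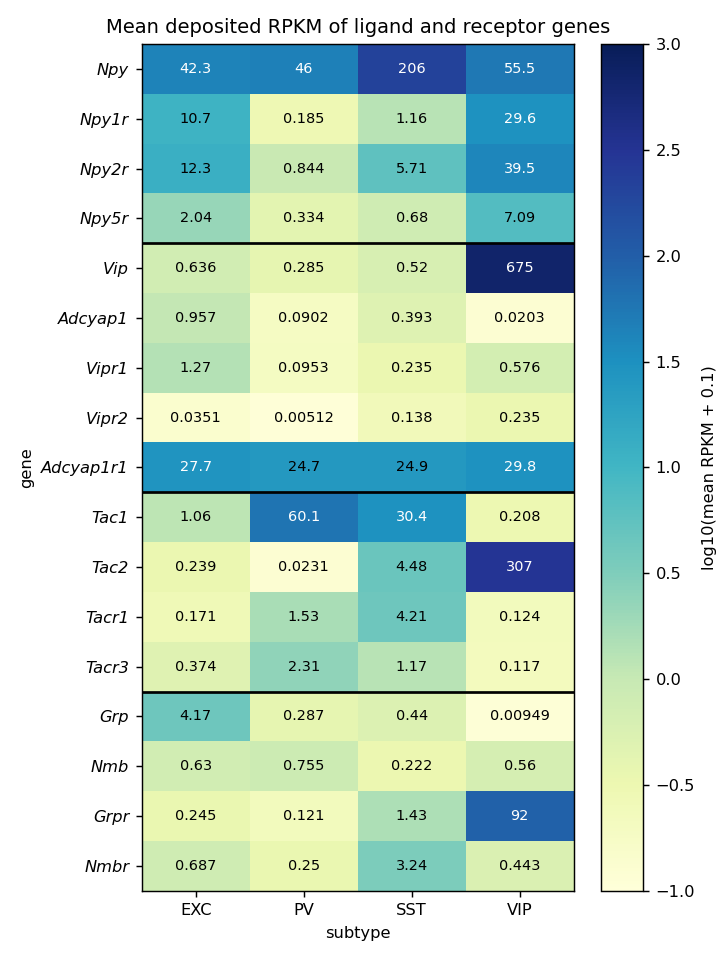
Mean deposited RPKM of the ligand and receptor genes in the 4 subtypes, in blocks for neuropeptide Y, VIP and PACAP, tachykinins and bombesin-like peptides; the colour is log10 of the mean plus 0.1. Npy is highest in SST and its receptors in VIP, Tac1 is highest in PV and Tac2 in VIP, and Grpr (92.0) is high where Grp is lowest.

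Of 11 other receptors of these families, 3 passed the filter. Nmbr, the neuromedin B receptor and the closest relative of Grpr in the list, was highest in SST at 15.6 ± 4.60 CPM (10.1 to 21.8), against 3.25 ± 3.15 in EXC, 2.03 ± 0.693 in VIP and 1.18 ± 0.972 in PV. It was higher in SST than in VIP by 2.89 ± 0.54 (adjusted p = 0.000196), where Grpr was lower by -5.80. Glp2r, a receptor of the VIP receptor class, was highest in EXC at 8.4 CPM. Glp1r averaged 1.93 CPM in SST, 1.89 in VIP and 0.190 in EXC, with 0 reads in PV. Npy4r, Npy6r, Sctr, Ghrhr, Gipr, Gcgr, Tacr2 and Brs3 averaged at most 0.664 CPM in a subtype.

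Genes that act downstream of the receptors also varied by subtype. On the Gs side, 10 of 11 genes for stimulatory G alpha subunits and adenylyl cyclases were tested. Of these, 4 were higher and 2 lower in EXC than the average log2 level of the other subtypes. Over all genes, 24.5% were higher and 18.1% lower (median log2 fold change -0.25, against 0.06 over all genes). The largest changes were in the calcium-stimulated cyclase Adcy1 (2.28 ± 0.13, 1420 CPM in EXC), Adcy9 (1.81 ± 0.16) and Adcy8 (-1.18 ± 0.21), while Gnal had -0.24 ± 0.14 (adjusted p = 0.191). Adcy2 was low in PV, at 16.8 CPM against 123 to 149 elsewhere (PV against VIP -3.15 ± 0.21). PV against VIP had 5 of the 10 higher and 2 lower, where 21.9% of all genes were higher and 26.7% lower (median 0.51, against -0.09 over all genes).

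On the Gi side, 4 of 8 genes for inhibitory G alpha subunits and G protein-gated potassium channel subunits were higher and 2 lower in EXC, against 24.5% and 18.1% of all genes (median 0.22, against 0.06). Kcnj6, a subunit of the potassium channel that Gi-coupled receptors open, was higher in EXC by 2.26 ± 0.12, and Kcnj3, another subunit, by 0.78 ± 0.15. Gnai1, an inhibitory G alpha subunit, was lower in EXC (-0.78 ± 0.14) and highest in VIP (690 CPM), with 440 CPM in SST, 252 in PV and 246 in EXC. VIP was also the subtype with the highest Npy1r, Npy2r and Npy5r. Gnai3 had 0.04 ± 0.14 (adjusted p = 0.837). PV against VIP had 2 higher and 2 lower, against 21.9% and 26.7% of all genes (median 0.06, against -0.09).

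On the Gq side, 11 of 13 genes for Gq subunits, phospholipase C beta, IP3 receptors and the NALCN channel complex were tested, and 5 were higher and 2 lower in EXC, against 24.5% and 18.1% of all genes (median 0.56, against 0.06). Itpr1, the main neuronal IP3 receptor, which releases stored calcium, stood at 592 CPM in EXC, 488 in PV and 251 in SST, and at 24.3 CPM in VIP (VIP against EXC -4.55 ± 0.36, adjusted p = 7.88e-11). Plcb4 was lower in EXC (-1.44 ± 0.19) and Plcb2 higher (1.20 ± 0.40), and Plcb1 had 0.08 ± 0.13 (adjusted p = 0.648). In PV against VIP 2 genes were higher and 3 lower, against 21.9% and 26.7% of all genes (median -0.37, against -0.09). VIP thus held the highest Grpr beside the lowest Itpr1.

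Among 10 receptor kinases, arrestins and receptor activity-modifying proteins, 4 were higher and 2 lower in EXC, against 24.5% and 18.1% of all genes (median 0.31, against 0.06). The 3 largest changes were Ramp1 (2.01 ± 0.28), Ramp3 (1.57 ± 0.39) and Ramp2 (1.51 ± 0.33), partners of class B receptors. In the same comparison, most glial and vascular markers were also higher in EXC: 8 of 8 tested oligodendrocyte markers, 6 of 10 astrocyte, 6 of 9 microglia, 5 of 6 mural and 3 of 4 endothelial markers, with 0 lower in each list. Of 5 oligodendrocyte precursor markers only 1 was tested, and it was lower in EXC (-1.61). The part of glial and vascular cells in the Ramp levels was not tested. Grk6 had -0.06 ± 0.24 (adjusted p = 0.876). Among 9 peptidases known to cut these peptides, 3 were higher and 4 lower in EXC, against the same shares of all genes (median -0.15, against 0.06). Dpp4, which trims neuropeptide Y, was higher in EXC by 2.42 ± 0.48, at 7.02 CPM. Mme, the tachykinin-degrading neprilysin, stood at 257 ± 47.2 CPM in PV, 59.9 ± 10.5 in SST, 15.1 ± 3.59 in EXC and 5.68 ± 2.42 in VIP, the order of Tacr3, and differed by 5.47 ± 0.27 between PV and VIP. In PV against VIP, the kinases and partners had 3 higher and 0 lower (7 not called; median 0.18, against -0.09) and the peptidases 2 and 2 (median 0.15), against 21.9% higher and 26.7% lower over all genes. In PV against VIP the peptidase counts are near those shares.

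To place each receptor gene among all genes, its log2 CPM over the 24 libraries was correlated with that of 9262 genes that reached 10 CPM on average in a subtype. These Pearson correlations describe patterns over libraries that fall into 4 subtypes, and the libraries of a subtype largely share a pool. Npy1r was most like Gpd1 (r = 0.973), Rxfp1 (0.946) and Adarb2 (0.942), Npy2r like Grid1 (0.95), Sorcs3 (0.939) and Pde4b (0.921), and Npy5r like Adarb2 (0.962), Rassf2 (0.936) and Ptprz1 (0.935). Vipr1 was most like Cbfa2t3 (0.932), Maml3 (0.927) and Phf21a (0.906). Tacr1 was most like Lhx6 (0.931), a transcription factor of medial ganglionic eminence interneurons, Satb1 (0.920) and Stmn2 (0.918), and Tacr3 like Mme (0.913), Nek7 (0.910) and Ptprm (0.905). Grpr was most like the ligand gene Tac2 (0.973), Ap1s2 (0.966) and the choline transporter gene Slc5a7 (0.961). For Adcyap1r1 the nearest genes were Rere (0.666), Lrfn1 (0.644) and Slc43a2 (0.642). With Spearman's rho, 8 of these 24 genes were named again.

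Among the members, Npy1r, Npy2r and Npy5r varied together over the 24 libraries (r = 0.907 for Npy1r with Npy2r, 0.926 for Npy1r with Npy5r, 0.859 for Npy2r with Npy5r), as did Tacr1 and Tacr3 (0.760). The neuropeptide Y and tachykinin receptor genes ran opposite, with r from -0.890 (Npy1r with Tacr3) to -0.568 (Npy2r with Tacr1). Adcyap1r1 had no r above 0.242 with another member, and its most negative r was -0.365, with Tacr1.

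No receptor gene passed edgeR's test for sex, in which 6 of 14890 genes (0.0403%) passed, 2 of them higher in female libraries (0.0134%) and 4 lower (0.0269%). The count was also 0 with DESeq2. Without adjustment, 1 receptor gene would pass 0.05: Grpr, with a log2 fold change of 0.80 ± 0.36 in female against male libraries (adjusted p = 1.00 in edgeR). Grpr was higher in the female libraries of SST (11.4 and 11.8 CPM, against 1.93 to 6.19 in 4 male libraries), while VIP libraries overlapped (317 to 552 CPM in females, 272 to 342 in males). Tacr1 in SST ran from 17.7 to 25.9 CPM in 2 female and from 38.3 to 57.2 in 4 male libraries. These 2 female SST libraries are replicates 4 and 6, which had the lowest sums of striatal markers, so sex and that marker level cannot be told apart within SST. A test of whether the sex effect differed between subtypes called 0 of 14890 genes (0%) in edgeR. Without adjustment, 2 receptor genes, Tacr3 and Grpr, would pass 0.05 in it.

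The sequencing pools overlapped the subtypes only in part. POOL6188 held all 6 PV and 5 EXC libraries, and within it the same comparison called 6 receptor genes (45.7% of all 12447 genes tested there): Npy1r (-5.90), Npy2r (-3.98), Npy5r (-2.80), Vipr1 (-3.84), Tacr1 (2.87) and Tacr3 (2.74). POOL7098 held 5 SST and 2 VIP libraries, and SST against VIP there called 6 (41.8% of 16449 genes): Npy1r (-4.52), Npy2r (-2.82), Npy5r (-3.40), Tacr1 (4.55), Tacr3 (3.33) and Grpr (-5.74). Each of these had the direction it had over all libraries. VIP and EXC share a pool only through EXC replicate 3. PV shared no pool with SST or VIP, and SST none with EXC, so for these 3 pairs the pool and the subtype cannot be told apart within a pool.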

How the data were processed

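Libraries of sorted neurons were aligned by the authors to GRCm38 with GSNAP, per the submitters' processing notes. Each deposited count is the number of uniquely aligned reads on a gene model, and the deposited RPKM are adjusted by size factors, per the file headers. The sources used here do not give the counting program, annotation, strand setting or size-factor method, so reads of overlapping or antisense genes may be mixed. NCBI Gene numbers were matched to RefSeq GRCm38.p6 for 31049 of 36528 genes; genes without a match held 0.862% to 3.004% of the reads.

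Counts of all 24 libraries were filtered with filterByExpr by subtype (minimum count 10), scaled by TMM and fitted with terms for subtype and sex in edgeR 4.0.16 (R 4.3.3). Quasi-likelihood F tests were adjusted by Benjamini-Hochberg over 14890 genes, with a threshold of 0.05. Standard errors were taken as the absolute log2 fold change over the square root of F. Correlations used log2 CPM with a prior count of 2. RPKM served for comparisons between genes only. Replicates were numbered in order of deposition. Counting intervals (95%, exact) cover counting error only. The fit was tested on simulated counts. All 9 receptor genes were described, with the 3 most correlated genes for each and, from each pathway list, up to 3 called genes by size of change and 1 not called per comparison; some further genes were chosen after their values were seen. The receptor genes, the other lists and the alternatives were chosen with earlier results of these data known. Alternatives were DESeq2 1.42.0, other size factors, other filters, no mitochondrial genes, other covariates, robust empirical Bayes, fewer subtypes or pools, and leaving out each library.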

Additional observations from a re-analysis of the deposited data

Results flagged for a closer look

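In 5 of 36 groups of 6 libraries (9 genes in 4 subtypes), 1 library lay far from the rest, with a gap to its nearest neighbour above 0.625 of the whole range of the group. That limit flags about 1 in 20 groups of normally distributed values. Several of the flagged groups rest on few reads, so this rate need not hold here, and the rate for these data was not measured. Npy2r in EXC replicate 5 stood at 184 CPM, with the next library at 76.5 CPM; this library also had the highest Npy5r of its group (16.3 CPM), the highest sum of 8 excitatory markers (6540 CPM) and the highest sum of 8 immediate early genes (1270 CPM). Grpr in EXC replicate 3 stood at 4.02 CPM, with the next at 0.757 CPM. Npy1r in PV replicate 3 stood at 5.03 CPM, with the next at 1.87 CPM. Vipr2 in SST replicate 6 stood at 3.16 CPM, with the next at 0.824 CPM, and held 58 of the 92 SST reads of this gene. Vipr2 in PV replicate 5 stood at 0.218 CPM on 1 read, with the other PV libraries at 0. A single read in a group meets this criterion by construction, so without that group the count is 4 of 35.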

How the results depend on the processing

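With the pool as a covariate, 2 receptor genes were called in SST against EXC (7 without it), 2 in PV against SST (5) and 4 in EXC against the mean (7). Over all genes, these comparisons called 4874 (5723 without it), 3259 (3911) and 5838 (6330). In VIP against EXC 3714 of all genes were called (5821 without it), and in PV against VIP 2341 (7242 without it). Grpr in PV against SST then turned from -3.23 to 0.49 (adjusted p = 0.786). That fit links POOL6188 with the other pools through EXC replicate 3 alone. Leaving out 1 library at a time gave 3 to 6 receptor genes called in PV against SST, with 3 without PV replicate 4. Counts of receptor genes called kept within 1.5 times the reported count in the other comparisons and settings run. Settings added after seeing the data left out the 5 libraries of POOL7099 and, for Vipr2, SST replicate 6. Over the values of single receptor genes under all settings, 47 were counted as lost calls and 9 gained a call. The 47 include Tacr3 in VIP against EXC on those 2 subtypes alone, where it fell below the count filter and has no value. In addition, 1 called value, that of Grpr, reversed. A further 29 values that passed in neither fit changed sign (14 for Adcyap1r1, 8 for Npy2r, 4 for Grpr, 2 for Tacr1 and 1 for Npy5r; smallest adjusted p 0.114). The genes named by likeness also changed. Within POOL6188, Grpr did not pass the filter and has no value. No paired analysis was possible because the labels carry no replicate numbers. In PV, the shallowest group, levels of Npy1r, Npy5r, Vipr1, Vipr2 and Grpr rest on 21, 17, 8, 1 and 10 reads.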

Other observations

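The 5 libraries of POOL7099 (4 VIP libraries and EXC replicate 3) held reads of pancreatic islet hormone genes that the other 19 libraries lacked or nearly lacked. Among the ligand genes, Pyy gave 9 to 23 reads and Ppy 2 to 14 reads in each of the 5 libraries, and 0 reads in each of the other 19. A further 4 islet genes were looked up after these values were seen. Gcg, the glucagon precursor, gave 2247 to 4975 reads (321 to 1050 CPM) in the 5 libraries and at most 8 reads in each of the others. Ins1 gave 7 to 21 reads against 0, Ins2 2 to 11 against at most 3, and Iapp 1 to 7 against 0. The source of these reads was not tested.

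Adcyap1r1 ran from 247 to 522 CPM in the 4 VIP libraries of POOL7099 and from 228 to 247 CPM in the 2 of POOL7098, and Grpr from 329 to 552 CPM and from 272 to 317 CPM. Npy1r overlapped between the pools, at 209 to 270 CPM and 251 to 253 CPM.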
